A study of Mus musculus with 45 samples.

Results

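The semaphorin, ephrin, Slit and netrin guidance genes are secreted or membrane-bound cues and their receptors, described here across 6 RNA-seq libraries of mouse heart. Members were taken by symbol alone, as every listed gene of the families Sema3 to Sema7, Plxn, Nrp, Efn, Eph, Slit, Robo, Ntn and Unc5. This gave 68 genes of the 23284 listed in each expression file. They comprise 20 semaphorins, 9 plexins, 2 neuropilins, 8 ephrins, 14 Eph receptors, 3 Slits, 4 Robos, 4 netrins and 4 Unc5 receptors. The series holds 45 samples, and the other 39, from chromatin immunoprecipitation, were not analysed here. Heart labelled banding, heart labelled sham, embryonic heart of stage E12.5 labelled Gata4 KO and E12.5 heart had 1 library each, and adult heart had 2.

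In banding a great vessel is tied narrow, which loads the heart, and sham is the same surgery without the tie. The vessel, the time after surgery and the age in weeks are not given in the labels used here. For the study as a whole the labels name the alleles cTNTcre, Gata4flox, Gata4fbio and Rosa26BirA, without saying which heart carried which. The cTNT promoter drives Cre in heart muscle cells, so other cells of such a heart would keep Gata4. Each library was made from pooled RNA, and no label gives separate animals or pools for the 2 adult libraries. The p-values below therefore measure only the spread between those libraries, which may be technical.

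Semaphorins are ligands of plexins, and the secreted class 3 semaphorins mostly bind them together with the co-receptors neuropilin 1 and 2. Ephrins are ligands fixed to the cell surface that bind Eph receptor tyrosine kinases on the neighbouring cell, and signals pass both ways. Slits are secreted and bind Robo receptors, and netrins are secreted and bind Dcc and Unc5 receptors. These systems were first described in growing axons. In the mouse heart and its vessels they take part in the division of the outflow tract (Sema3c, Plxnd1, Nrp1), in sympathetic innervation (Sema3a), in the separation of arteries and veins (Efnb2, Ephb4) and in the forming of septa and valves (Slit and Robo genes).

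Levels are given as log2(FPKM + 1), the scale of the deposited values, where FPKM counts fragments for each kilobase of transcript and scales them by the mapped reads, so levels are per length and can be set side by side between genes. The libraries held 12086929 to 21056784 mapped reads. The share of these that fell on listed genes was 58.0% in banding and 55.6% in sham, against 83.6% and 83.9% in adult, and of 11582 genes tested 8010 lay lower in sham than in adult on this scale. Heart muscle markers were high in all 6 libraries, with a summed level of 23700 to 51000 FPKM over 7 genes. Gata4 checks the knockout label. It stood at 6.13 in the library labelled Gata4 KO and at 5.93 in the E12.5 library, from 4159 and 4290 reads, a ratio of FPKM of 1.15 (95% counting interval 1.10 to 1.20). Gata4 was therefore not lower in the library with the knockout label, and the part of the transcript that the allele removes is not given in the labels. All directions drawn from the library labelled Gata4 KO rest on its label.

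Of the 68 guidance genes, 50 reached 1 FPKM in at least 1 library and 39 reached 5 FPKM. The other 18 stayed under 1 FPKM in all 6 libraries. These are Sema3e, Sema4a, Sema4f, Sema5b, Plxnb3, Efna3, Epha5, Epha6, Epha8, Epha10, Ephb6, Slit1, Robo2, Robo3, Ntn5, Unc5a, Unc5c and Unc5d. Counting is not stated to use strand, and in RefSeq (GRCm38.p6) 7 members overlap another protein-coding gene (Sema3b, Plxna1, Epha1, Epha5, Ntn3, Ntn5 and Unc5a), so their levels are uncertain. For Epha1 the partner Zyx stood higher than Epha1 in every library, at 2.87 to 6.51.

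Because the study set Gata4 against expression, the sequence before the start of the members was read on both strands for the core letters of GATA factor sites. These were AGATAA with its variant AGATAG, then TGATAA with its variant TGATAG. RefSeq windows (GRCm38.p6) of 250 bases before the start were at hand for 59 of the 68 members. Sema3b, Sema3f, Sema6a, Plxna1, Plxna4, Efnb3, Slit1, Ntn1 and Unc5d had none. The letters occurred in 9 of these members (15.3%), against 8039 of 27025 genes (29.7%). Member windows had a median GC content of 65.2%, against 52.4% over all genes, and a median of 16 CpG dinucleotides, against 6. The 9 members with a match are Sema3a, Sema4d, Sema6d, Plxna2, Plxnb3, Efna4, Epha3, Robo2 and Unc5b.

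The windows of Slit3, Sema3c and Epha7 are shown because the library labelled Gata4 KO exceeded E12.5 most in these members, among those at 5 FPKM or more. Those of Sema3a and Unc5b are shown as examples that hold the letters, with the match in capitals.
Slit3, chr11:35121206-35121455, plus strand: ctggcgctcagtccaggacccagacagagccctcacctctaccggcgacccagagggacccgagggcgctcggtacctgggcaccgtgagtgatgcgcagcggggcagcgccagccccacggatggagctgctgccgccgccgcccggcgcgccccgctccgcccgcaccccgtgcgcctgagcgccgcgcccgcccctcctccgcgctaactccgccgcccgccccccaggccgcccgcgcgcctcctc
Sema3c, chr5:17574566-17574815, plus strand: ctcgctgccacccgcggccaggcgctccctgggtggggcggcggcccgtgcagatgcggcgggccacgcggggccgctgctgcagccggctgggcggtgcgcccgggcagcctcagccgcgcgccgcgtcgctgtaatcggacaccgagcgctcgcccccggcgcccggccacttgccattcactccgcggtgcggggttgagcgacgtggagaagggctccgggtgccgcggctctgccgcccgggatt
Epha7, chr4:28812881-28813130, plus strand: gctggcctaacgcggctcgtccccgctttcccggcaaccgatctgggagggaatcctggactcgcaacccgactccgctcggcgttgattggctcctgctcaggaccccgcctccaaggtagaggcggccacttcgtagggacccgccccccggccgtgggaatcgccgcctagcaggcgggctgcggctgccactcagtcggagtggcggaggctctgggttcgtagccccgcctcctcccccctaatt
Sema3a, chr5:13396534-13396783, plus strand: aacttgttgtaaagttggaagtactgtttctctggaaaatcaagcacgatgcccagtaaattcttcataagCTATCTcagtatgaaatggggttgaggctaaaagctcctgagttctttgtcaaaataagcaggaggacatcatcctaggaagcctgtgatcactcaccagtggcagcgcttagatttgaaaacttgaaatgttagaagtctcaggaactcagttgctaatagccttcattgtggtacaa
Unc5b, chr10:60831582-60831831, minus strand: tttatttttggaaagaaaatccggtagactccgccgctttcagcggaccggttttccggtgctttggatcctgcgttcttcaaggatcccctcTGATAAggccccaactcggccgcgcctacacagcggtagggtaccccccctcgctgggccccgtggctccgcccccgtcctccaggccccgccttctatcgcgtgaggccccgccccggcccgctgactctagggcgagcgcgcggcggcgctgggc
None of the 4 motifs occurs in the windows of Slit3, Sema3c and Epha7, whose GC content is 78.8%, 78.4% and 69.2%. The Sema3a window is AT-rich, with 40.8% GC, and holds CTATCT, the reverse complement of AGATAG. The Unc5b window, with 66.8% GC, holds TGATAA. A match is a description of the letters and not of a bound site.

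**Figure D1:**
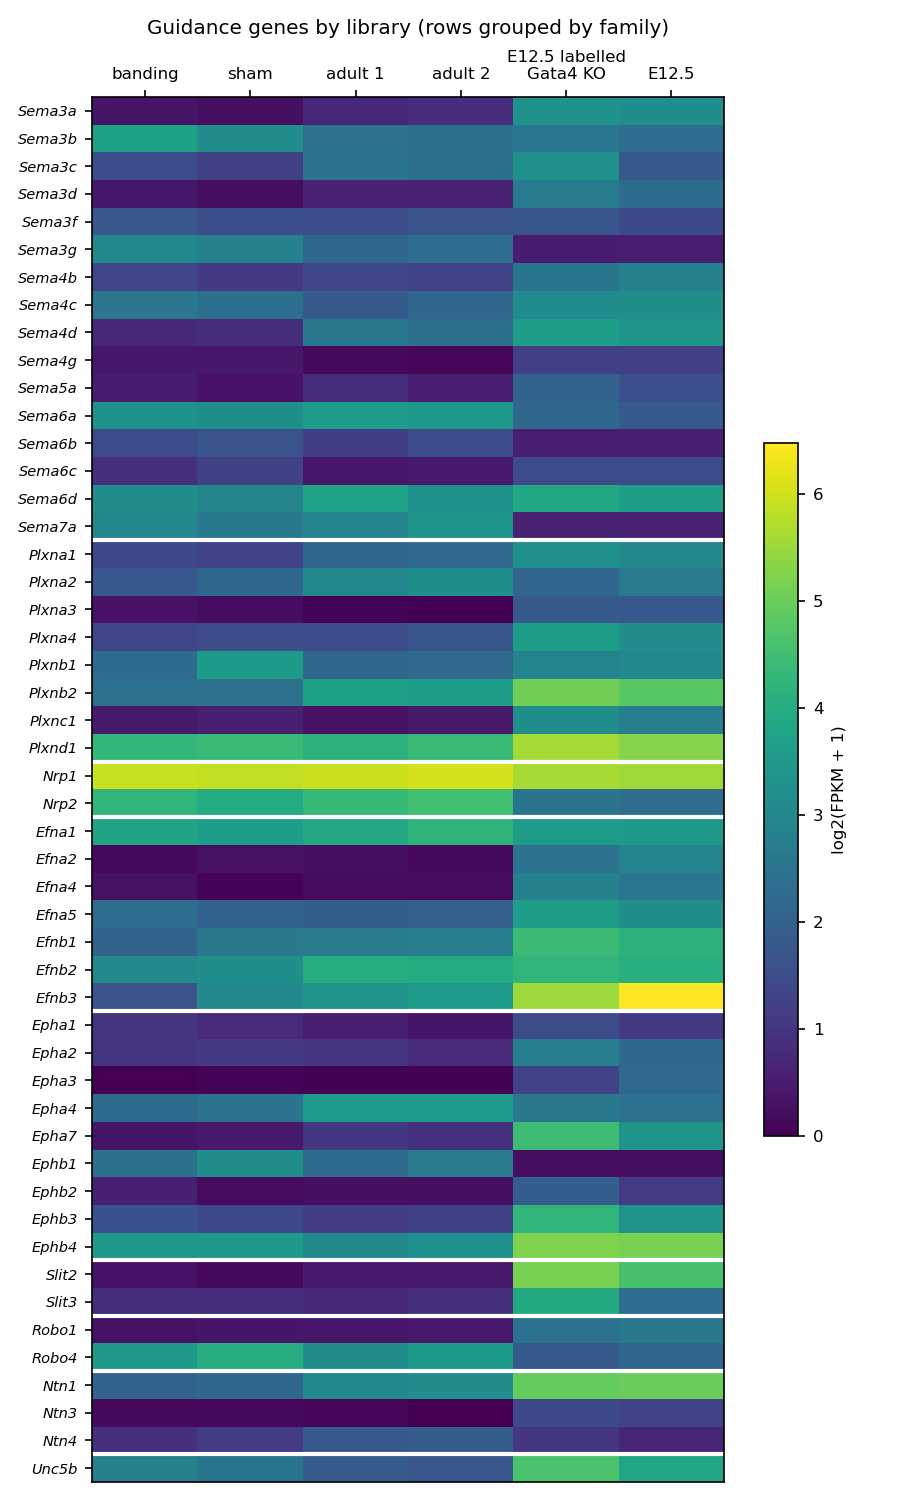
Level of each guidance gene that reached 1 FPKM in at least 1 library, as log2(FPKM + 1) by colour, with libraries in columns and white lines between families. Nrp1 is bright in all 6 columns at 5.54 to 6.04, and Slit2 and Epha7 are at 3.43 to 5.15 in the library labelled Gata4 KO and in E12.5 and at 1.05 or less in the others.

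Adult heart was compared with E12.5 heart to see how the guidance genes differ between the mature and the forming heart. Most of them fell, and the falls took in ligands and receptors alike, among them Slit2, Efnb3, Efna2 and Epha3. Their order depends on the scale, since Efnb3 fell by 3.01 and Epha3 by 2.18 in log2(FPKM + 1), while the FPKM ratio of adult to E12.5 was 0.114 for Efnb3 and 0.00555 for Epha3. A smaller group rose, among them both neuropilins, Sema7a, Sema3g, Sema6a, Ephb1 and the endothelial receptor Robo4. By limma, 33 of 50 members tested were lower in adult (66%) and 11 were higher (22%), against 48.4% lower and 23.4% higher over all 12658 genes tested. The median difference was -1.07 over the members and -0.51 over all genes. The share of members that were higher was thus close to that of all genes, and the share that were lower was above it. Genes entered the test through any 1 of the 3 libraries. Members under 1 FPKM in adult, such as Slit2, Plxnc1 and Epha3, entered only through E12.5 and could hardly be called other than lower. Among genes with a mean of at least 5 FPKM, 9 of 19 members were lower, against 3525 of 7332 genes, and 7 were higher, against 2283. The share of members that were lower was then close to that of all genes. In whole-tissue RNA, fewer cells of a type and less RNA per cell cannot be told apart. Over the 50 members, the adult libraries differed from each other by a median of 0.11 and at most by 0.49, for Sema7a.

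Scaling moves these counts. With median-of-ratios scaling the median of all genes was -0.05 and that of the members -0.73, with 14 members higher and 27 lower. Of all 12658 genes tested, 4043 were then higher and 4517 lower. The share of all calls that were higher was 47.2%, against 32.6% as deposited. Calls of 38 of the 44 members were kept, and no called member changed sign under median-of-ratios or upper-quartile scaling. Without the filter on low values 31 of the 44 calls were kept. Sema3c, Sema6b, Sema7a, Sema4c, Sema4d, Sema5a, Plxna4, Plxnd1, Epha1, Epha2, Ephb1, Robo4 and Ntn4 then did not pass. The rule of size used below counts a gene as different when its FPKM ratio is at least 2 either way and the higher group reaches 5 FPKM. By it, 5 of the 50 members were higher in adult, against 12.8% of all genes tested, and 20 were lower, against 28.6% of all genes. With median-of-ratios scaling the rule gave 7 members higher and 11 lower, and 2354 genes higher and 2406 lower over all genes, in place of 1619 and 3621. Between the 2 adult libraries it counted none, against 0.165% higher and 0.184% lower over all genes.

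**Figure D2:**
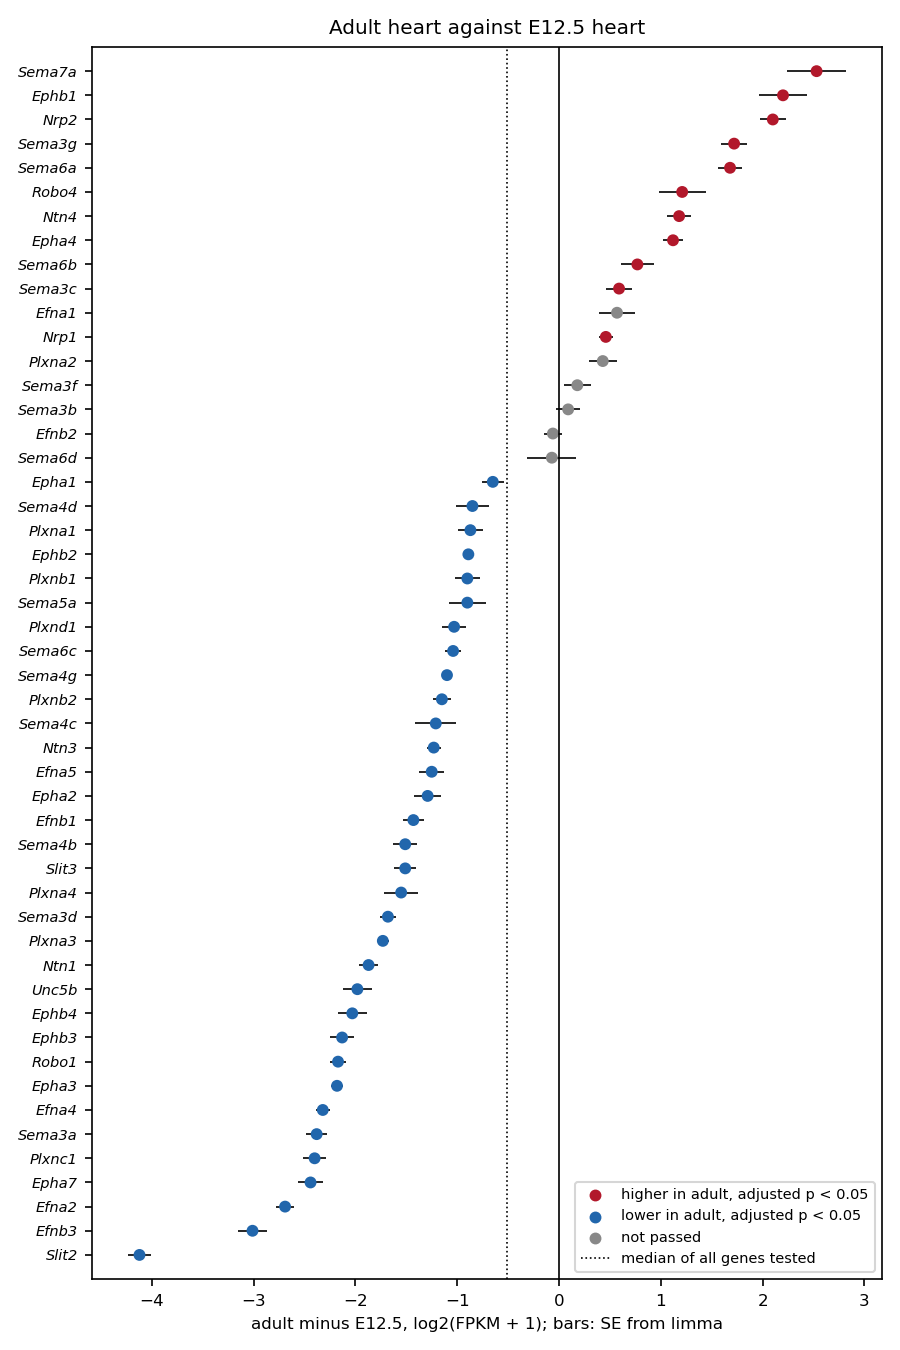
Difference of each tested guidance gene between adult and E12.5 heart, adult minus E12.5 in log2(FPKM + 1), with bars for the limma standard error and colours for the call. Slit2 lies lowest at -4.12 and Sema7a highest at 2.53, and the dotted line marks the median of all genes at -0.51.

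Among the semaphorins, 5 rose, 8 fell, 3 did not pass and 4 were under 1 FPKM. Sema7a is a semaphorin held to the membrane by a lipid anchor. It stood at 2.99 in banding, 2.62 in sham, 2.90 and 3.39 in adult, 0.62 in the library labelled Gata4 KO and 0.62 in E12.5. All 4 libraries from hearts after birth lay above both E12.5 libraries, and adult was higher than E12.5 by 2.53 (SE 0.29, limma adjusted p = 0.0131). Sema3g, a secreted semaphorin known from arterial endothelium, had 3.0 in banding, 2.84 in sham, 2.18 and 2.32 in adult, 0.51 in the library labelled Gata4 KO and 0.54 in E12.5. Hearts after birth and at E12.5 did not overlap here either, and adult was higher by 1.72 (SE 0.13, limma adjusted p = 0.00706). Sema6a, a transmembrane ligand of plexins A2 and A4, reached 3.30 in banding, 3.21 in sham, 3.54 and 3.45 in adult, 2.17 in the library labelled Gata4 KO and 1.82 in E12.5. Its difference between adult and E12.5 was 1.68 (SE 0.12, limma adjusted p = 0.00672). Sema6b, another transmembrane semaphorin, was higher by 0.77 (SE 0.16, limma adjusted p = 0.0351), at 1.21 and 1.47 in adult and 0.57 in E12.5.

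Sema3a, the secreted repellent that patterns sympathetic nerves in the mouse heart, went the other way. It had 0.36 in banding, 0.27 in sham, 0.75 and 0.82 in adult, 3.30 in the library labelled Gata4 KO and 3.16 in E12.5. All hearts after birth were low, and the level fell by 2.38 in adult (SE 0.10, limma adjusted p = 0.00443). Sema3d, a secreted semaphorin needed for pulmonary vein patterning in the mouse, had 0.41 in banding, 0.27 in sham, 0.62 in both adult libraries, 2.68 in the library labelled Gata4 KO and 2.29 in E12.5. It fell by 1.68 in adult (SE 0.08, limma adjusted p = 0.00454). The class 4 semaphorins are transmembrane proteins and ligands of the B plexins. Of the 6 in the list, Sema4b, Sema4c, Sema4d and Sema4g were lower in adult, by 0.85 to 1.51 in size on the log2 scale, and Sema4a and Sema4f were under 1 FPKM. Sema6c fell by 1.04 and Sema5a by 0.90, while Sema3b at 0.09 and Sema3f at 0.18 did not pass. With median-of-ratios scaling Sema4c, Sema4d and Sema5a did not pass, and with upper-quartile scaling Sema4d and Sema5a did not.

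Sema3c, the ligand of Plxnd1 and the neuropilins in outflow tract division, depended on the E12.5 library used. It stood at 1.53 in banding, 1.23 in sham, 2.48 and 2.39 in adult, 3.24 in the library labelled Gata4 KO and 1.84 in E12.5. Adult lay between the E12.5 libraries, at 0.59 above E12.5 (SE 0.13, limma adjusted p = 0.0397). With a pseudocount of 0.1 on FPKM it did not pass. Set against the library labelled Gata4 KO, adult was lower, at -0.80. Sema6d, a transmembrane semaphorin with roles in chick heart morphogenesis, had the highest mean of the family over the 6 libraries. Its levels were 3.19 in banding, 2.94 in sham, 3.73 and 3.32 in adult, 3.88 in the library labelled Gata4 KO and 3.60 in E12.5. The adult libraries lay on both sides of E12.5, and Sema6d did not pass (-0.07, SE 0.24, limma adjusted p = 0.804). The summed FPKM of the 20 semaphorins was 57.1 and 56.8 in adult and 64.9 in E12.5, with no member above 21.5% of the sum in these 3 libraries.

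Of the 9 plexins, the semaphorin receptors, 7 fell, Plxna2 did not pass and Plxnb3 was under 1 FPKM. Their summed FPKM was 45.3 and 49.0 in adult, against 101.0 in E12.5. Plxnd1, the receptor of Sema3e and a marker of vessel endothelium, had the highest level of the plexins in every library. It reached 4.29 in banding, 4.36 in sham, 4.17 and 4.35 in adult, 5.59 in the library labelled Gata4 KO and 5.29 in E12.5. On the deposited scale hearts after birth were alike and below both E12.5 libraries, and the level fell by 1.03 in adult (SE 0.12, limma adjusted p = 0.0141). Plxnc1, the receptor of Sema7a, fell where its ligand rose. Its levels were 0.46 in banding, 0.57 in sham, 0.31 and 0.44 in adult, 3.22 in the library labelled Gata4 KO and 2.78 in E12.5, a difference of -2.40 between adult and E12.5 (SE 0.11, limma adjusted p = 0.00443). Plxnb2, a receptor of class 4 semaphorins, had 2.45 in banding, 2.44 in sham, 3.67 and 3.60 in adult, 5.07 in the library labelled Gata4 KO and 4.79 in E12.5. It fell by 1.15 in adult (SE 0.09, limma adjusted p = 0.00756).

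Plxna3, a receptor for class 3 semaphorins with neuropilins, was low after birth. It had 0.32 in banding, 0.22 in sham, 0.06 and 0.02 in adult, 1.84 in the library labelled Gata4 KO and 1.77 in E12.5, a difference of -1.73 (SE 0.06, limma adjusted p = 0.00398). Plxna2 stood at 3.03 and 3.21 in adult and at 2.69 in E12.5, and the difference of 0.43 did not pass (SE 0.14, limma adjusted p = 0.0905). With upper-quartile or median-of-ratios scaling Plxna2 passed as higher in adult. Plxna4 fell by 1.55, Plxnb1 by 0.90 and Plxna1 by 0.87, and Plxna1 and Plxnb1 did not pass with median-of-ratios scaling.

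Both neuropilins rose. Nrp1, the co-receptor of Sema3a that also binds VEGF, had the highest level of all members in 5 of the 6 libraries, with 5.93 in banding, 5.87 in sham, 5.98 and 6.04 in adult, 5.63 in the library labelled Gata4 KO and 5.54 in E12.5. Its range across the libraries was narrow on the deposited scale, and adult was higher by 0.46 (SE 0.07, limma adjusted p = 0.0210). With upper-quartile and median-of-ratios scaling that difference was 0.82 and 0.96. Under both scalings Nrp1 was also higher in sham than in E12.5 by the rule of size. Nrp2, the co-receptor of Sema3f that is known from veins and lymphatics, had 4.26 in banding, 3.97 in sham, 4.33 and 4.50 in adult, 2.49 in the library labelled Gata4 KO and 2.31 in E12.5. It was higher in adult by 2.10 (SE 0.13, limma adjusted p = 0.00574), with every heart after birth above both E12.5 libraries. Nrp1 made up 76.4% and 74.9% of the summed neuropilin FPKM in adult, against 92.0% in E12.5. Endothelial markers summed to 341 and 347 FPKM in adult and 290 FPKM in E12.5, with 4 of 8 above and 4 below E12.5. Their part in these differences was not tested.

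**Figure D3:**
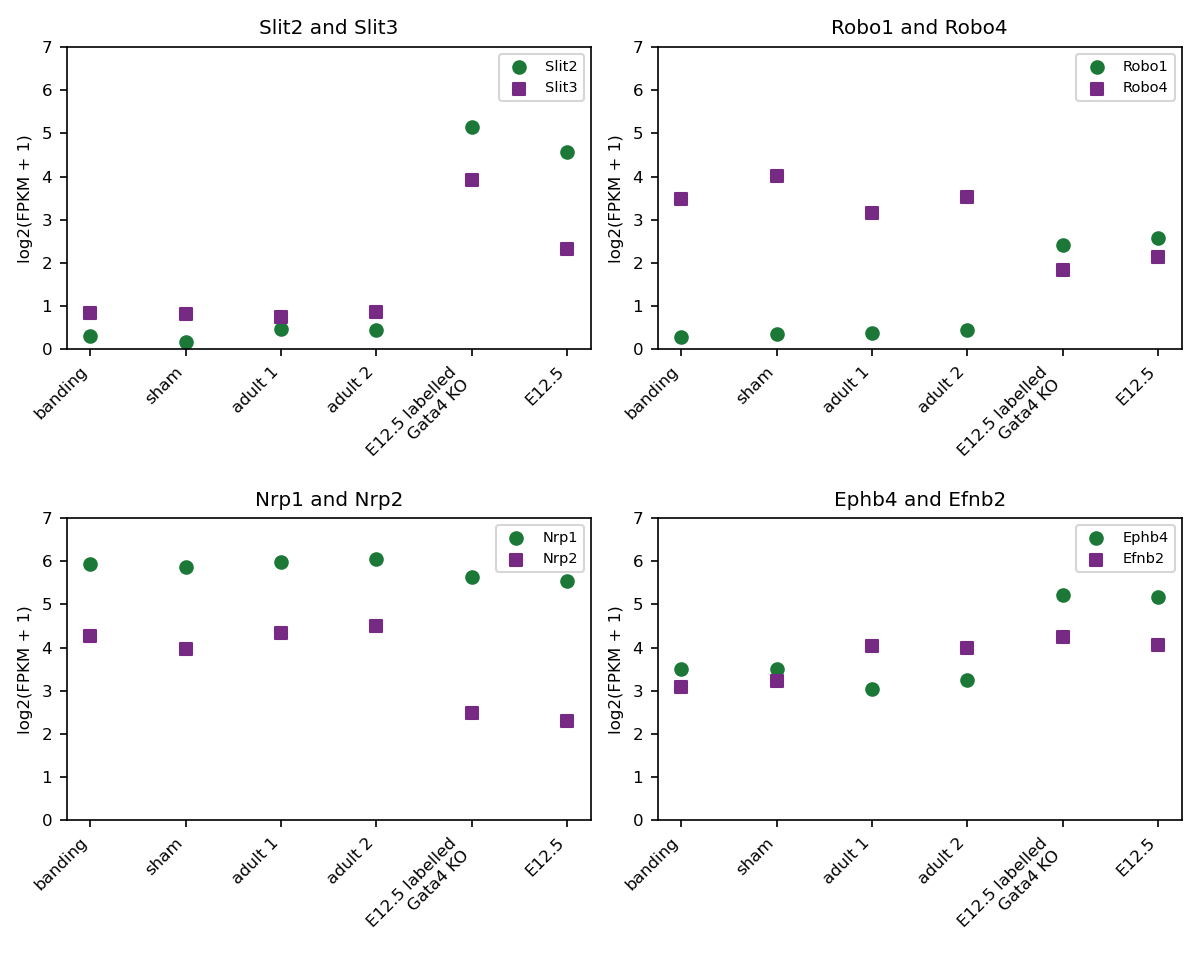
Levels of 4 pairs of guidance genes in each library as log2(FPKM + 1), with a point per library. Robo4 lies above Robo1 in hearts after birth (3.16 to 4.02) and below it in both E12.5 libraries (1.83 and 2.13), while Slit2 lies at 0.48 or less after birth.

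Among the 8 ephrins, 5 fell, Efna1 and Efnb2 did not pass and Efna3 was under 1 FPKM. Efnb3, a transmembrane ephrin known from the midline of the mouse spinal cord, was the highest of all members in E12.5. It stood at 1.65 in banding, 3.07 in sham, 3.35 and 3.56 in adult, 5.52 in the library labelled Gata4 KO and 6.47 in E12.5. It fell by 3.01 in adult (SE 0.14, limma adjusted p = 0.00454). In E12.5 it made up 58.3% of the summed ephrin FPKM, where Efna1 or Efnb2 led in adult. Efna2 and Efna4, ephrins held by a lipid anchor that bind EphA receptors, were low in every heart after birth. Efna2 had 0.14 in banding, 0.30 in sham, 0.25 and 0.16 in adult, 2.47 in the library labelled Gata4 KO and 2.90 in E12.5, a difference of -2.69 between adult and E12.5 (SE 0.09, limma adjusted p = 0.00398). Efna4 had 0.29 in banding, 0.07 in sham, 0.20 in both adult libraries, 2.83 in the library labelled Gata4 KO and 2.53 in E12.5, a difference of -2.32 (SE 0.07, limma adjusted p = 0.00398).

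Efnb1 fell by 1.43 and Efna5 by 1.25. Efna1, which had the highest mean of the A ephrins, stood at 3.90 and 4.20 in adult and 3.48 in E12.5, and its difference of 0.57 did not pass (SE 0.18, limma adjusted p = 0.0820). With upper-quartile or median-of-ratios scaling, or among genes with a mean of at least 5 FPKM, Efna1 passed as higher in adult.

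Efnb2 and Ephb4 are the ligand and receptor that mark arteries and veins. Efnb2 had 3.10 in banding, 3.23 in sham, 4.04 and 3.99 in adult, 4.25 in the library labelled Gata4 KO and 4.07 in E12.5. Adult and E12.5 lay close together, and the difference of -0.06 did not pass (SE 0.09, limma adjusted p = 0.596). Under median-of-ratios scaling Efnb2 passed as higher in adult. Ephb4 had 3.51 in banding, 3.50 in sham, 3.04 and 3.25 in adult, 5.22 in the library labelled Gata4 KO and 5.17 in E12.5. On the deposited scale all hearts after birth were below E12.5, and the level fell by 2.03 in adult (SE 0.14, limma adjusted p = 0.00662). With upper-quartile or median-of-ratios scaling Ephb4 in sham was not lower than in E12.5 by the rule of size. The receptor was thus above its ligand in E12.5, and the ligand above the receptor in adult, while in banding and sham the receptor lay above.

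Of the 14 Eph receptors, 7 fell, 2 rose and 5 were under 1 FPKM. Ephb1, a receptor of B ephrins, rose. It had 2.39 in banding, 3.19 in sham, 2.25 and 2.65 in adult, 0.24 in the library labelled Gata4 KO and 0.26 in E12.5, a difference of 2.20 between adult and E12.5 (SE 0.24, limma adjusted p = 0.0120). Epha4, a receptor that binds ephrins of both classes, had 2.29 in banding, 2.47 in sham, 3.58 and 3.55 in adult, 2.58 in the library labelled Gata4 KO and 2.44 in E12.5. The rise of 1.12 (SE 0.10, limma adjusted p = 0.00920) came with the adult pair, while banding and sham stood at the E12.5 level on this scale. With upper-quartile or median-of-ratios scaling Epha4 in sham was higher than in E12.5 by the rule of size. It was then not lower than in adult by that rule. Epha4 led the summed Eph receptor FPKM in adult with 42.1% and 38.0%, where Ephb4 led in E12.5 with 50.8%.

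Epha7, Epha3, Ephb3, Ephb4, Epha1, Epha2 and Ephb2 were the receptors that fell. Epha7 had 0.36 in banding, 0.43 in sham, 1.05 and 0.94 in adult, 4.43 in the library labelled Gata4 KO and 3.43 in E12.5, and the level fell by 2.44 in adult (SE 0.12, limma adjusted p = 0.00498). Epha3, which is needed for the valve cushions of the mouse heart, had 0.00 in banding, 0.06 in sham, 0.03 in both adult libraries, 1.30 in the library labelled Gata4 KO and 2.21 in E12.5. Hearts after birth held almost none, and the difference was -2.18 (SE 0.06, limma adjusted p = 0.00398). Ephb3 had 1.63 in banding, 1.42 in sham, 1.17 and 1.24 in adult, 4.25 in the library labelled Gata4 KO and 3.34 in E12.5, a difference of -2.13 (SE 0.12, limma adjusted p = 0.00537). Epha2 fell by 1.29, Ephb2 by 0.89 and Epha1 by 0.65, and Epha1 did not pass with upper-quartile or median-of-ratios scaling.

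Slit2 fell furthest of the members tested on the log2(FPKM + 1) scale, while the FPKM ratios of Epha3 and Plxna3 were lower still. Slit2 had 0.32 in banding, 0.17 in sham, 0.48 and 0.45 in adult, 5.15 in the library labelled Gata4 KO and 4.58 in E12.5. It was high in both E12.5 libraries and near the floor in all 4 others, and the level fell by 4.12 in adult (SE 0.11, limma adjusted p = 0.00398). Slit3 had 0.85 in banding, 0.82 in sham, 0.75 and 0.87 in adult, 3.92 in the library labelled Gata4 KO and 2.32 in E12.5, a difference of -1.51 between adult and E12.5 (SE 0.11, limma adjusted p = 0.00672). Slit2 made up 85.1% of the summed Slit FPKM in E12.5, while Slit3 made up 63.2% and 66.8% in adult. Slit2 alone averaged 0.381 FPKM in adult, against 22.9 FPKM in E12.5. The sum over the Slits was 1.08 and 1.24 FPKM in adult, against 27 FPKM in E12.5.

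Of the Robo receptors, Robo1 fell and Robo4 rose. Robo1, the receptor of Slits in the forming septum and valves, had 0.29 in banding, 0.36 in sham, 0.38 and 0.45 in adult, 2.41 in the library labelled Gata4 KO and 2.59 in E12.5. It fell by 2.17 in adult (SE 0.08, limma adjusted p = 0.00403). Robo4, a receptor of endothelial cells that stabilises vessels, had 3.49 in banding, 4.02 in sham, 3.16 and 3.53 in adult, 1.83 in the library labelled Gata4 KO and 2.13 in E12.5. It was higher in adult by 1.21 (SE 0.23, limma adjusted p = 0.0308). Robo4 held 94.9% and 93.9% of the summed Robo FPKM in adult, where Robo1 led in E12.5 with 57.3%.

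Among netrins and their receptors, Ntn1, Ntn3 and Unc5b fell and Ntn4 rose. Ntn1, the classical netrin, had 2.06 in banding, 2.18 in sham, 3.09 and 3.16 in adult, 4.95 in the library labelled Gata4 KO and 4.99 in E12.5. It fell by 1.87 in adult (SE 0.09, limma adjusted p = 0.00498). Ntn4, a netrin of basement membranes, had 0.87 in banding, 1.12 in sham, 1.78 and 1.92 in adult, 1.02 in the library labelled Gata4 KO and 0.67 in E12.5, and adult was higher by 1.18 (SE 0.12, limma adjusted p = 0.0107). Unc5b, the Unc5 receptor of vessel endothelium, had 2.82 in banding, 2.51 in sham, 1.89 and 1.76 in adult, 4.60 in the library labelled Gata4 KO and 3.81 in E12.5. It fell by 1.98 in adult (SE 0.14, limma adjusted p = 0.00656) and held 90.6% or more of the summed Unc5 FPKM in every library. Dcc, another netrin receptor, was at 0.90 or less in all 6, while its relative neogenin (Neo1) was at 1.70 to 3.84.

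Summed markers of epicardium, atrial muscle and red cells were lower in adult too. The 6 epicardium genes were all below E12.5 and summed to 9.42 and 6.64 FPKM in adult, against 116 FPKM in E12.5. Atrial markers summed to 136 and 77.8 FPKM in adult, against 5870 FPKM in E12.5, and red cell markers to 0.521 and 1.31 FPKM in adult, against 13500 FPKM in E12.5. Of the 3 atrial genes, 2 were below E12.5, while Sln was above it, at 3.18 and 1.67 in adult and 0.45 in E12.5. The red cell sum in E12.5 came almost wholly from Hbb-y, at 13.71 in E12.5 and 0 in both adult libraries. Hbb-b1 and Hba-a1 were listed at 0 in adult and in E12.5, so the sum is not a measure of red cell number. Fibroblast markers summed to 90.3 and 113 FPKM in adult and 108 FPKM in E12.5, with 2 of 6 above and 4 below E12.5. Heart muscle markers summed to 51000 and 50900 FPKM in adult and 35200 FPKM in E12.5, with 5 of 7 above and 2 below E12.5. Their part in the differences of the guidance genes was not tested.

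Genes that work with the guidance receptors inside the cell or beside them were counted in the same comparison. Of 68 such genes, 58 were tested, and by limma 14 were higher and 33 lower in adult, against 23.4% higher and 48.4% lower over all genes, with a median of -0.78 against -0.51. Rock2 and Rock1, kinases downstream of RhoA, rose by 2.39 (SE 0.07, limma adjusted p = 0.00398) and 2.09 (SE 0.11, limma adjusted p = 0.00521). Rgma, a ligand of the netrin receptor relative neogenin, had 3.37 and 3.58 in adult and 0.74 in E12.5, and rose by 2.73 (SE 0.16, limma adjusted p = 0.00560). Dpysl2 and Dpysl3, collapsin response mediator proteins that act below semaphorin receptors, fell by 3.39 (SE 0.11) and 3.49 (SE 0.08), each with a limma adjusted p = 0.00398. Flrt2, a membrane protein that binds Unc5 receptors, had 1.04 and 1.03 in adult and 4.51 in E12.5, and fell by 3.48 (SE 0.12, limma adjusted p = 0.00398).

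The E12.5 library labelled Gata4 KO was compared with the E12.5 library, 1 library against 1, so there is no replicate check and no p-value. Slit3, Sema3c and Epha7 were higher by the rule of size and no member was lower, against 1.26% higher and 0.688% lower over all 12062 genes tested. Of the 46 members tested, 35 lay above E12.5 and 11 below. Over all genes, 5592 lay above and 6470 below. The median difference was 0.25 over the members and -0.02 over all genes. The intervals given here cover counting error only.

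Slit3 stood at 3.92 in the library labelled Gata4 KO and at 2.32 in E12.5, from 1255 and 421 reads. The ratio of FPKM was 3.53 (95% counting interval 3.15 to 3.95). Slit2 was also above E12.5, at a ratio of 1.5 (1.44 to 1.57), which is short of the rule, and its share of the summed Slit FPKM was 70.9% in the library labelled Gata4 KO, against 85.1% in E12.5. Their receptor Robo1 was slightly below E12.5, at a ratio of 0.860 (0.772 to 0.959).

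Sema3c had 745 reads in the library labelled Gata4 KO and 270 in E12.5, a ratio of 3.26 (2.84 to 3.76). Its receptors moved far less, with 1.24 for Plxnd1 (1.19 to 1.29), 1.07 for Nrp1 (1.03 to 1.11) and 1.16 for Nrp2 (1.03 to 1.30). Sema3d was at a ratio of 1.39 (1.23 to 1.56) and Sema3a at 1.11 (1.02 to 1.20). The counts of Sema3c alone among the class 3 semaphorins thus met the rule, and the difference between members was not tested.

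Epha7 had 2461 reads in the library labelled Gata4 KO and 1387 in E12.5, a ratio of 2.10 (1.96 to 2.24) whose interval reaches below the limit of 2. Ephb3 lay just outside the rule, at 1.98 (1.81 to 2.17), and Unc5b at 1.79 (1.68 to 1.90). Ephb2 had a ratio of 2.32 (1.86 to 2.91) but a level under 5 FPKM in both libraries. On the low side, Efnb3 stood at 5.52 in the library labelled Gata4 KO and at 6.47 in E12.5, a ratio of 0.513 (0.490 to 0.538) that lay just short of the rule. Epha3 had a ratio of 0.401 (0.317 to 0.503), also under 5 FPKM in both. Ephb4, Ntn1 and Sema4c were within 5% of E12.5, at ratios of 1.03, 0.969 and 0.965.

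**Figure D4:**
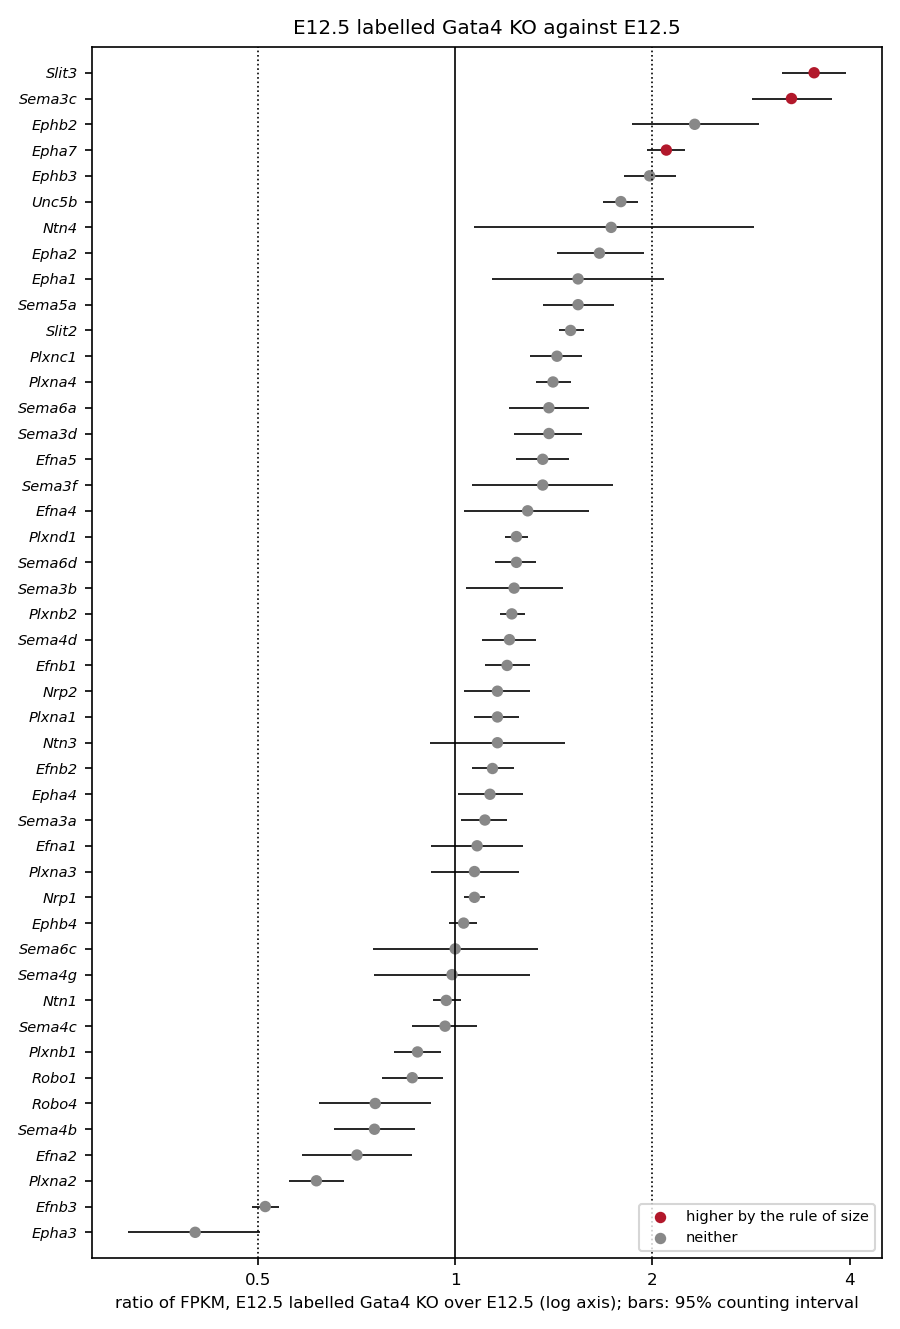
Ratio of FPKM of each tested guidance gene, E12.5 labelled Gata4 KO over E12.5, on a log axis with 95% counting intervals and dotted lines at ratios of 0.5 and 2. Slit3 and Sema3c lie clear of the upper line at 3.53 and 3.26, and the interval of Epha7 crosses it.

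Several marker lists differed between the same libraries. Fibroblast markers summed to 213 FPKM in the library labelled Gata4 KO and 108 FPKM in E12.5, with all 6 genes above. Epicardium markers summed to 169 FPKM in the library labelled Gata4 KO and 116 FPKM in E12.5, with 5 of 6 above. Endothelial markers summed to 422 FPKM in the library labelled Gata4 KO and 290 FPKM in E12.5, with 7 of 8 above. Heart muscle markers were lower, at 23700 FPKM in the library labelled Gata4 KO and 35200 FPKM in E12.5, with 6 of 7 below. Red cell markers were higher, at 41800 FPKM in the library labelled Gata4 KO and 13500 FPKM in E12.5, with Hba-a1 listed at 0 in both. Both sums came almost wholly from Hbb-y, at 15.34 in the library labelled Gata4 KO and 13.71 in E12.5. Their part in the differences of Slit3, Sema3c and Epha7 was not tested.

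Banding was compared with sham to see how the guidance genes stand in the loaded heart, again with 1 library each and no p-value. Plxnb1 and Efnb3 were lower by the rule of size and no member was higher, against 0.754% lower and 1.48% higher over all 11011 genes tested. Of the 33 members tested, 18 lay above sham and 15 below, with a median difference of 0.01 over the members and 0.03 over all genes.

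Plxnb1, the receptor of Sema4d, stood at 2.25 in banding and 3.52 in sham, from 454 and 1091 reads. The ratio was 0.359 (95% counting interval 0.321 to 0.401). Adult hearts without an operation had 2.16 and 2.21, so banding lay beside adult and sham stood apart on the deposited scale. Efnb3 stood at 1.65 in banding and 3.07 in sham, from 96 and 287 reads, a ratio of 0.288 (0.227 to 0.365). Here adult had 3.35 and 3.56, so sham lay nearer to adult and banding stood apart on the deposited scale.

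Ephb1 lay just outside the rule, at 2.39 in banding and 3.19 in sham, a ratio of 0.520 (0.447 to 0.605). Robo4 was at a ratio of 0.673 (0.600 to 0.755) and Efnb1 at 0.630 (0.505 to 0.785). On the other side, Sema3b reached 3.69 in banding and 3.16 in sham, a ratio of 1.49 (1.30 to 1.72), and Sema7a had a ratio of 1.36 (1.13 to 1.62). Nrp1, Ephb4, Plxnd1 and Plxnb2 lay within 5% of sham, at ratios of 1.04, 1.01, 0.951 and 1.01.

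Slit2, Sema3a, Epha7 and Robo1 were picked from the members that fell in adult after their values were seen. These 4 lay between 0.29 and 0.36 in banding and between 0.17 and 0.43 in sham, where E12.5 had 2.59 to 4.58. Other members that fell in adult lay above sham in banding. Unc5b had a ratio of 1.29 (1.12 to 1.49). Ephb2, under 1 FPKM in both, had 3.56 (1.61 to 8.91) from 33 and 8 reads. Of all 33 members tested, 18 lay above sham and 15 below. In the same libraries fibroblast markers summed to 649 FPKM in banding and 255 FPKM in sham, with all 6 above sham and Col1a1 at 6.11 in banding and 4.08 in sham. Endothelial markers summed to 224 FPKM in banding and 226 FPKM in sham, and heart muscle markers to 26400 FPKM in banding and 29300 FPKM in sham. Their part in the differences of Plxnb1 and Efnb3 was not tested.

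**Figure D5:**
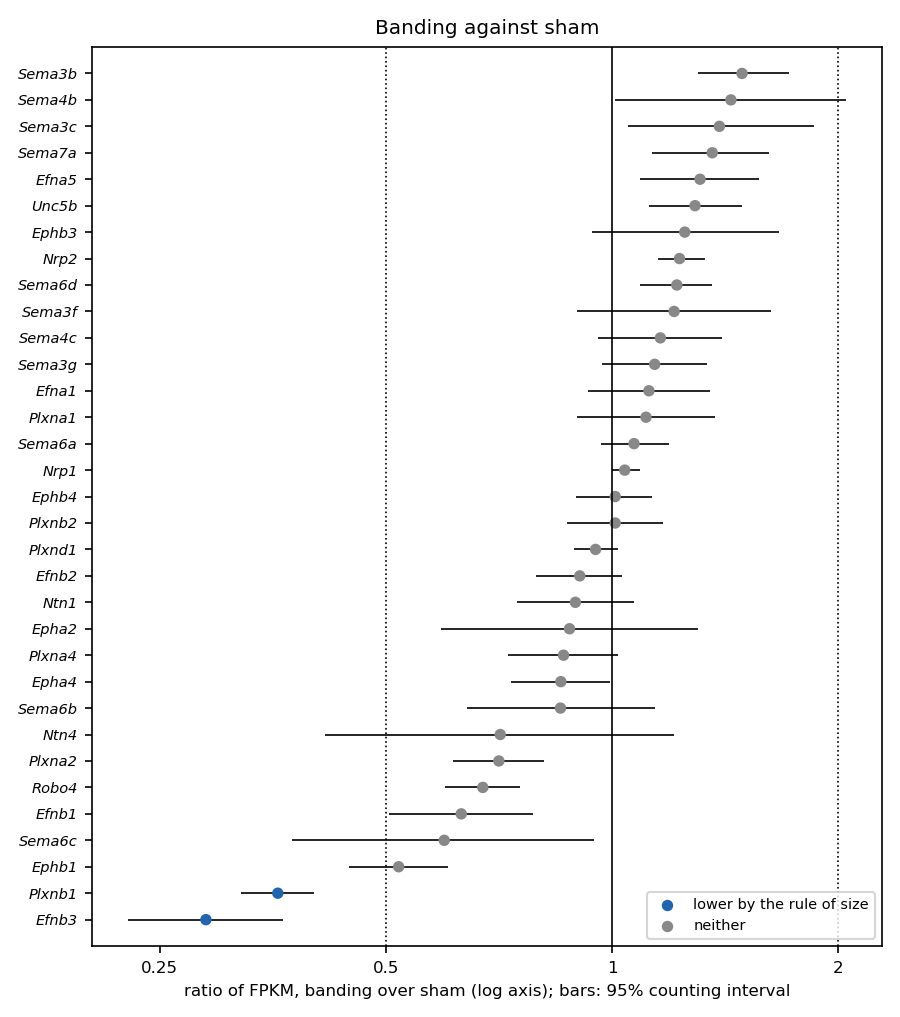
Ratio of FPKM of each tested guidance gene, banding over sham, on a log axis with 95% counting intervals and dotted lines at ratios of 0.5 and 2. Plxnb1 and Efnb3 lie left of the lower line at 0.359 and 0.288, and no gene lies right of the upper line.

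Sham was set against adult as a measure of what the operated hearts show without banding. Plxnb1 was higher in sham by the rule of size, at 3.52 in sham, against 2.16 and 2.21 in adult, a ratio of 2.96. Plxna2, Plxnb2, Epha4 and Ntn1 were lower, at ratios of 0.453, 0.388, 0.420 and 0.459. Over all 11582 genes tested, 3.74% were higher and 25.2% lower. These 4 lower calls rest on the scale. The median of all genes was -0.44 as deposited, -0.01 with median-of-ratios scaling and 0.21 with upper-quartile scaling. Under median-of-ratios and upper-quartile scaling no member of 37 tested was lower, and 7 and 8 were higher. Over all genes, 1108 of 12042 were then higher and 1719 lower with median-of-ratios scaling. With upper-quartile scaling 1565 of 12081 were higher and 1217 lower. Plxnb1 was higher under every scaling, and Sema3b, Sema3g, Sema4c, Ephb1, Robo4 and Unc5b joined it under each of the 3 other scalings. Other values differed between these libraries too. Rn45s, the ribosomal RNA precursor, stood at 12.94 in sham, against 8.65 and 8.94 in adult. Fibroblast markers summed to 255 FPKM in sham, against 90.3 and 113 FPKM in adult, with 4 of 6 above adult and 2 below. Macrophage markers summed to 22.8 FPKM in sham, against 7.80 and 9.59 FPKM in adult, with 3 of 4 tested above and 1 below. Atrial markers summed to 2.62 FPKM in sham, against 136 and 77.8 FPKM in adult, and heart muscle markers to 29300 FPKM in sham, against 51000 and 50900 FPKM in adult. Their part in the differences was not tested.

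Sham was also set against E12.5, the library that the adult comparison uses too. By the rule of size 7 of the 50 members were higher, against 7.34% of all 12731 genes tested, and 18 were lower, against 41.0%, and the median was -1.12 over the members and -0.95 over all genes. The share of members that were lower was thus slightly below that of all genes, while the share that were higher was above it. The median of the members was also below that of all genes, and these differences were not tested. With median-of-ratios scaling 11 of 48 members were higher and 10 lower. Over all 12777 genes tested the counts were then 2148 and 2805, in place of 935 and 5215. The higher members were Sema3b, Sema3g, Sema6a, Sema7a, Nrp2, Ephb1 and Robo4. Ephb1 had the greatest ratio, 42.1 (26.6 to 70.6), from 459 reads in sham and 19 in E12.5. Slit2 had the lowest, 0.00542 (0.00280 to 0.00948), from 12 reads in sham and 3857 in E12.5. Sema4d, the ligand of Plxnb1, had 0.75 in banding and 0.84 in sham, against 2.60 and 2.38 in adult and 3.34 in E12.5. Rn45s stood at 12.94 in sham and 7.56 in E12.5, and atrial markers summed to 2.62 FPKM in sham, against 5870 FPKM in E12.5. Epicardium markers summed to 14.1 FPKM in sham, against 116 FPKM in E12.5, and their part was not tested.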

How the data were processed

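The authors deposited 1 value per gene in each of 6 libraries, in log2 units of FPKM + 1. The scale was read from the values, since the low values of a gene stand in whole-number ratios between libraries once log2 is undone. Pooled RNA (2 µg per the labels' protocols) was poly(A)-selected and copied with random primers. Per the submitters' processing notes, the series used MACS 1.4, BWA 0.5.9, HTSeq 0.5.3, TopHat 1.4 and CASAVA 1.8.2 on mm9, and their roles are not given in the sources used here. All 98043 values above 0 gave whole reads within 0.001 of a read, from which mapped reads and exact conditional binomial 95% intervals of FPKM ratios were computed (scipy 1.17.1). No count model was run, since the values are FPKM. Near-identical copies are not separated by the counting.

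The test of adult against E12.5 was limma 3.58.1 (R 4.3.3, eBayes with trend, Benjamini-Hochberg at 0.05) on the 12658 genes that reached 1 FPKM in any of the 3 libraries. The adult pair gives 1 residual degree of freedom, beside 1.535 prior ones, and the single E12.5 library is taken to vary like adult. Differences on the log2(FPKM + 1) scale understate the change of low genes. Other comparisons use the rule of size, a ratio of group means of at least 2 and 5 FPKM or more in the higher group, among genes at 1 FPKM in at least 1 library. Named genes are the up to 10 members with the greatest difference each way, the highest member of each family, and members known from heart or vessels, and others were named after their values were seen. Members and lists were chosen with earlier results of these data known. Alternatives were the pseudocount, filters, scalings, other fits and leaving out an adult library.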

Additional observations from a re-analysis of the deposited data

How the results depend on the processing

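In adult against E12.5 by limma, the count of higher members was 11 and that of lower members 33. They were 5 and 34 with no filter on low values, against 2103 and 5791 of 23284 genes. Among genes with a mean of at least 5 FPKM, only 19 members were tested. Of these, 7 were higher and 9 lower, against 2283 and 3525 of 7332 genes. The counts of members stayed within 1.5 times under a pseudocount of 0.1, other scalings, no trend, all 6 libraries in the fit, or the library labelled Gata4 KO in place of E12.5. With that last library Sema3c reversed, to -0.80, and no other called member changed sign under any of these settings. By the rule of size, adult against E12.5 gave 5 higher and 20 lower as deposited. A floor of 1 FPKM for the higher group gave 9 and 32. Upper-quartile scaling gave 12 lower and median-of-ratios scaling 11 lower. Over all genes those scalings gave 2615 and 2406 lower, in place of 3621. For the library labelled Gata4 KO, against 3 higher and 0 lower, a floor of 1 FPKM gave 1 lower, and a ratio of 1.5 gave 6 higher and 2 lower. For banding against sham, a ratio of 1.5 gave 4 lower in place of 2. Shares over all genes are not given for the floor of 1 FPKM and the ratio of 1.5, here or below. Counts at these settings therefore describe the members alone and do not set them apart from other genes.

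For sham against adult, 1 higher and 4 lower became 2 and 8 with a floor of 1 FPKM and 5 and 7 with a ratio of 1.5. They became 8 and 0 with upper-quartile scaling, 7 and 0 with median-of-ratios scaling and 8 and 0 without the 50 highest genes. Over all genes these settings gave 1565 and 1217, 1108 and 1719, and 1537 and 1139, in place of 433 and 2915. For sham against E12.5, 7 higher and 18 lower became 28 lower with a floor of 1 FPKM, 11 and 9 with upper-quartile scaling and 11 and 10 with median-of-ratios scaling. Over all genes those scalings gave 2379 and 2612, and 2148 and 2805, in place of 935 and 5215. The cause of these shifts was not tested. Leaving out each adult library gave 5 to 6 higher and 20 lower against E12.5, and for sham against adult 1 to 2 higher, with 2 without adult replicate 2, and 4 to 5 lower. limma could not be fitted without an adult library, as no residual degrees of freedom remain. No paired analysis was possible because adult alone has more than 1 library and no group shares replicate numbers with it. With 1 library in each of the other 4 groups, counting error is known and the spread between hearts is not.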

Other observations

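Of the 68 genes that work beside the guidance receptors, 1 met the rule of size in the library labelled Gata4 KO against E12.5. In banding against sham 2 did. Over all genes tested, 1.26% were higher and 0.688% lower in the library labelled Gata4 KO, and 1.48% higher and 0.754% lower in banding. Whether such small counts differ from these shares was not tested. In sham against E12.5, 2 were higher and 24 lower of 57 tested, against 7.34% and 41.0% of all genes. In the library labelled Gata4 KO, Gpc1, a cell-surface heparan sulfate proteoglycan, was the 1 gene past the rule of size, at 3.91 in the library labelled Gata4 KO and 5.20 in E12.5, with 55 tested and a median of 0.06. In banding, Enah, a regulator of actin filament growth, stood at 6.0 in banding and 4.36 in sham, with 6.43 and 5.99 in adult, so that sham stood apart on the deposited scale. Dpysl3 stood at 3.90 in banding and 2.78 in sham, with 3.34 and 3.37 in adult. These were the 2 of 51 genes tested that met the rule in banding, with a median of 0.08. The spread between hearts of these groups is not known.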
